A study of Mus musculus with 13 samples.

Results

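KAP1 peaks with no histone mark were the 2087 KAP1 peaks, out of 12470 in Hepa 1-6 cells, that shared no base with any region of the H3K9me3, H3K27ac and H3K4me1 lists. They made up 16.7% of the KAP1 peaks. The members were chosen by measured values, namely the overlap of each KAP1 peak with the 3 mark lists, so the lack of a mark and the distance to the nearest mark are given as description and carry no test. The other peaks were 5388 with an active mark (H3K27ac or H3K4me1) and no H3K9me3, 4412 with H3K9me3 and no active mark, and 583 with both. The first pair of these classes served for comparison.

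Hepa 1-6 is a murine hepatoma line. KAP1 and the 3 histone marks were profiled by ChIP-seq in cells under standard culture, with 1 library for each antibody. The PolII and PolIII libraries came from cells taken 5 days after delivery of a control short hairpin RNA (control; an empty vector according to the methods of the study) or of a hairpin against KAP1 (Kap1 KD), again with 1 library for each. The labels name transfection with a plasmid, while the methods describe viral transduction followed by puromycin selection. No group had a replicate, the files give no read depth, and the input libraries were not analysed here. All intervals therefore cover counting error over peaks only, and peaks are not replicates of a condition. An H3K27ac region lay over the promoter of 5 of 8 liver genes (Alb, Afp, Trf, Hnf4a and Foxa2, but not Apoa1, Apob or Ttr) and of 1 of 6 genes of other cell types (Col1a1), while a control PolII peak lay over 1 of the 8 (Foxa2) and 1 of the 6 (Cd68). KAP1 itself was not profiled under Kap1 KD in the files used, and the promoter and body of Trim28, the gene for KAP1, held no KAP1 peak.

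KAP1 is best known as a corepressor that other proteins bring to DNA. The study also cites reports of KAP1 at active promoters without KRAB zinc finger proteins, and a proposed model in which it binds DNA directly. In the best-described route, sequence is read by other proteins. KRAB zinc finger proteins (KZFPs) bind particular sequences and bring KAP1, which assembles a histone methyltransferase for H3K9me3 and heterochromatin proteins at the site. One KZFP, ZFP57, recognises the letters TGCCGC when their CpG is methylated and holds KAP1 at imprinting control regions. PolIII transcribes tRNA genes and other short genes, and a tRNA gene carries its own promoter inside the transcribed stretch, with an A box and a B box bound by the factor TFIIIC.

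The stretches of 100 bp that follow (mm9, forward strand) show what the members with the highest KAP1 scores held. Capitals mark TGCCGC or its reverse complement GCGGCA. These are 5 of the highest-scoring members with the motif in the central 200 bp, no PolIII peak, a centre that is mostly single-copy and no annotated exon in the printed stretch, and each is named by the nearest protein-coding gene.

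Rasgrf1, chr9:89774389-89774488: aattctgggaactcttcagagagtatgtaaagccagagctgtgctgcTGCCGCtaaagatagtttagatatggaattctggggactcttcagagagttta
Syt16, chr12:75227109-75227208: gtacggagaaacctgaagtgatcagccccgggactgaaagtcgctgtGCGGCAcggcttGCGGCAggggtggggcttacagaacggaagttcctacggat
Klf5, chr14:99982788-99982887: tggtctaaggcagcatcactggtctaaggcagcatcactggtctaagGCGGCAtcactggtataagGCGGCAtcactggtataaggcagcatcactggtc
Morn1, chr4:154492498-154492597: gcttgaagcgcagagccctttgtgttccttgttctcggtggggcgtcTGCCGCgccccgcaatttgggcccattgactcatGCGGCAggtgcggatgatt
Gnai1, chr5:17865764-17865863: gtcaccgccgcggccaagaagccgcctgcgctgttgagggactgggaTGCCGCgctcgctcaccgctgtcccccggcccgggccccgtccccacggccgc

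At the Klf5 site, 284996 bp from the gene's TSS, 44.1% of the 32-base words at the centre occurred elsewhere in the assembly. The Syt16, Klf5 and Morn1 stretches held the motif 2 times each, and the other 2 stretches once. A second group of members carried PolIII. For these, capitals mark the B box core GGTTCGA or its reverse complement TCGAACC. Agbl5 and Wbp4 are among the highest-scoring members with PolIII and the longer B box motif GGTTCGANT, in stretches free of annotated exons. Commd3 is the highest-scoring intergenic member with a single-copy centre.

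Agbl5, chr5:31190477-31190576: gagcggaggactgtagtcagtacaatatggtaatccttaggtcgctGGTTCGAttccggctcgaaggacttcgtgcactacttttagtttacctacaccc
Wbp4, chr14:79881479-79881578: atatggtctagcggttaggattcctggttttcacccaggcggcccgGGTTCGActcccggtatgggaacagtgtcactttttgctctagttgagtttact
Commd3, chr2:18508663-18508762: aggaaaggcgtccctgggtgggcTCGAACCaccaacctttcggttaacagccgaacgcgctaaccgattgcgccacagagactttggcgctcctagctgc

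The members lay mostly away from gene starts. Of the 2087 centres, 1110 (53.2%) were intergenic and more than 3 kb from any protein-coding TSS, 423 (20.3%) were in introns, 71 in exons, 117 (5.61%) at 1 to 3 kb from a TSS and 366 (17.5%, 95% Wilson interval 15.97 to 19.2%) within 1 kb of a TSS. Over all KAP1 peaks the share within 1 kb was 28.1%. It was 48.9% in the active class (odds ratio 0.222, 95% interval 0.196 to 0.252) and 10.4% in the H3K9me3 class (odds ratio 1.83, 1.58 to 2.12), so the members stood between the 2 classes. A difference was called where the interval of the odds ratio left out 1. A rule that required a mark over at least 0.5 of a peak's length, which put partly covered peaks among the members, turned the first odds ratio to 1.39. Counting marks within 1 kb ended the call against H3K9me3 (1.09).

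The KAP1 score, the value the authors' list gives each peak, had a median of 82.95 over the members, against 91.93 in the active class and 133 in the H3K9me3 class. A score above the list median of 101.53 was found at 37.6% of members (35.5 to 39.7%), 43.9% of active peaks (odds ratio 0.768, 0.692 to 0.852) and 61.0% of H3K9me3 peaks (odds ratio 0.386, 0.346 to 0.429). Within quintiles of peak width the comparison with the active class turned, to an odds ratio of 2.29, and the call was lost with marks over at least 0.5 of a peak (0.969) and with 500 bp around each centre (0.984). The median width was 996 bp in the members, 1133 bp in the active class and 1109 bp in the H3K9me3 class. How far width bore on these comparisons was not tested. The middle 50% of member scores ran from 62.3 to 139.9, yet 14 members had scores of 3100 or above.

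**Figure D1:**
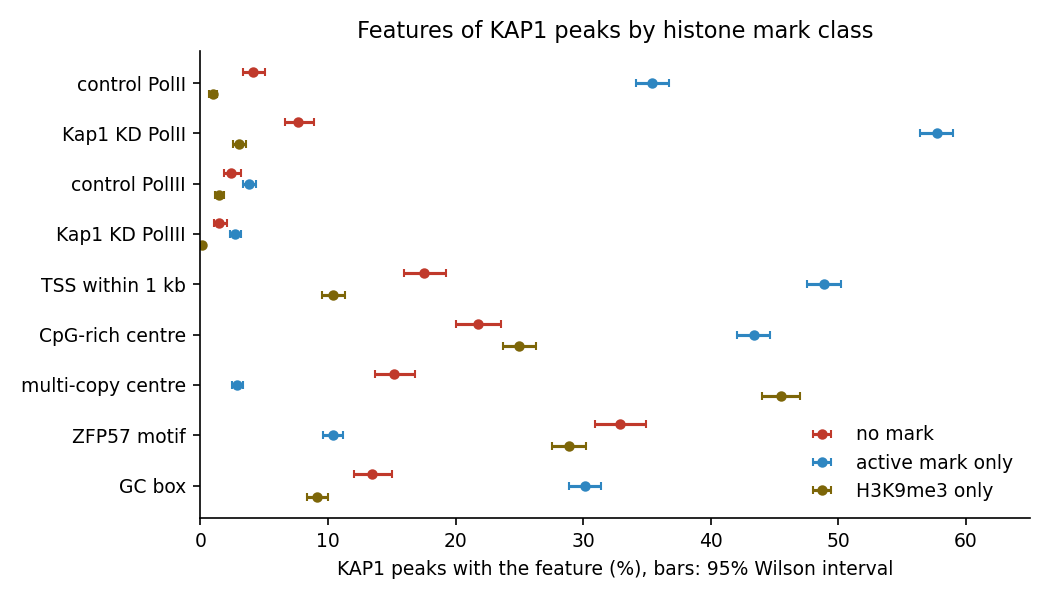
Share of KAP1 peaks (%) with each feature on the horizontal axis, for the 2087 peaks with no mark (red), 5388 with an active mark only (blue) and 4412 with H3K9me3 only (brown). Points are shares and bars are 95% Wilson intervals. The unmarked peaks lie between the other classes for PolII, for TSS and for multi-copy centres, and at the top, at 32.9%, for the ZFP57 motif.

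The distance to the nearest mark region is part of how the members were chosen and is given only as description. Its median was 4840 bp and its largest value 244117 bp. The nearest region was H3K9me3 for 747 members, H3K4me1 for 747 and H3K27ac for 593. A mark began within 100 bp of 117 members (5.61%), within 500 bp of 367 (17.6%) and within 1 kb of 512 (24.5%). The 117 members just inside the rule had a median score of 77.7, with a TSS within 1 kb of 53.0% and a control PolII peak at 19.7%. Just outside it, the 150 peaks with 1 to 100 bp covered by active marks had a median score of 79.4, a TSS at 66.7% and control PolII at 30.0%. The 93 peaks with 1 to 100 bp covered by H3K9me3 had a median score of 91.96, a TSS at 6.45% and control PolII at 4.30%.

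The chromosomes differed in how many of their KAP1 peaks lacked a mark. On chromosomes 9, 14, 16 and 12 the share was 46.6, 44.8, 38.4 and 30.1%, compared with 5.86 to 23.3% on the other 16 chromosomes that held members, and chromosome 15 had the lowest share. Those 4 chromosomes held 7.64 to 10.4 H3K4me1 regions per Mb, fewer than the 15.8 to 90.7 elsewhere. The ranges overlapped for H3K27ac, at 11.5 to 14.99 against 12.02 to 38.5 per Mb, and for H3K9me3, at 6.58 to 19.8 against 15.6 to 68.7 per Mb. The 4 chromosomes held 856 of the 12470 KAP1 peaks and 342 of the 2087 members. The rule used the mark lists, so the densities of mark regions are given as description. Whether the mark calls on these chromosomes set their share of unmarked peaks was not tested. The 35 odds ratios between classes kept their direction and call without the 4 chromosomes and within chromosomes, settings that were added once the data had been seen, while the counts of motifs called moved from 3 to 4 against the active class and from 9 to 8 against H3K9me3 without the 4 chromosomes.

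**Figure D2:**
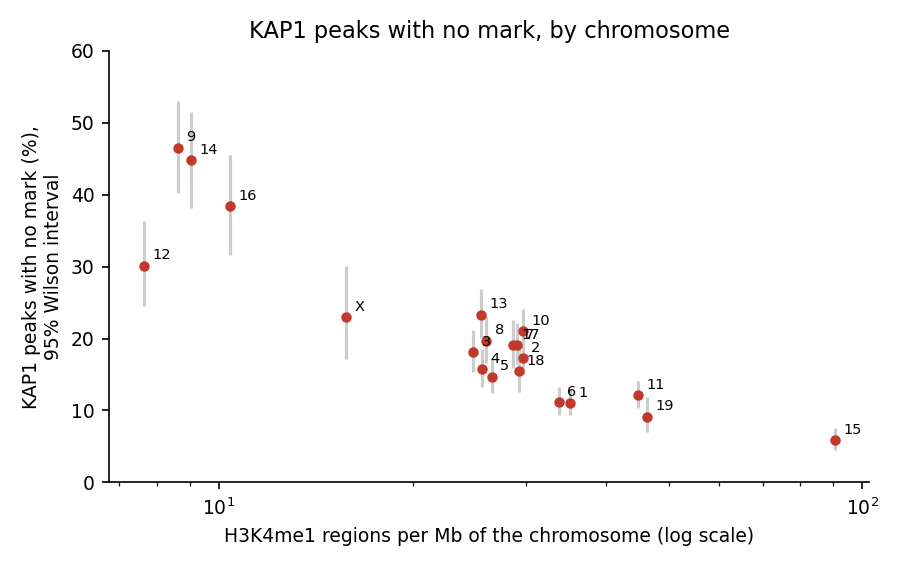
Share of each chromosome's KAP1 peaks that had no mark (vertical axis, %, bars 95% Wilson interval) against the H3K4me1 regions per Mb on that chromosome (horizontal axis, log scale). Each point is 1 of 20 chromosomes, and chromosomes 9, 12, 14 and 16 lie at the upper left with 7.64 to 10.4 regions per Mb and shares of 30.1 to 46.6%.

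The ZFP57 motif was more frequent at the members than at active KAP1 peaks. TGCCGC, on either strand, was present in the central 200 bp of 686 members (32.9%, 30.9 to 34.9%). The share was 20.6% over all KAP1 peaks, 10.4% in the active class (odds ratio 4.24, 3.73 to 4.81) and 28.9% in the H3K9me3 class (odds ratio 1.21, 1.08 to 1.35). It was 12.9% over the same length around the 5′ ends of all 22367 protein-coding genes. Among all 2080 words of 6 letters, with both strands pooled, TGCCGC had the largest difference between members and active peaks, at 22.5 percentage points. The median word differed by -0.124 points. Next in order came CGGCAA and GCCGCA, which overlap TGCCGC or its reverse complement in their letters, and AATAAA, which does not. They differed by 14.5, 12.9 and 12.2 points. Their shares were 19.4, 23.6 and 24.96% in members and 20.6, 23.5 and 28.3% in the H3K9me3 class. Whether these words belong to a longer shared sequence was not tested. Against the H3K9me3 class TGCCGC ranked 38. The difference from the H3K9me3 class did not hold in a 500 bp window (odds ratio 0.951), with 500 bp around each centre in place of the peak (0.958) or with marks over at least 0.5 of a peak (1.03, interval 0.928 to 1.13), whereas that from the active class held in all 15 alternatives (2.72 to 5.98). Within quintiles of CpG content it was 5.98, and among single-copy centres 4.36, both alternatives chosen after seeing the data.

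The motif was concentrated at the middle of the peaks. In the 100 bp bin at the centre, 20.9% of members held TGCCGC, against 10.0 and 10.8% in the bins at 100 bp to either side and 0.958 to 1.15% at 1 kb. The H3K9me3 class had the same shape, with 16.95% at the centre and 1.07 to 1.22% at 1 kb. The active class had 5.55% at the centre and 1.30 to 1.41% at 1 kb.

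**Figure D3:**
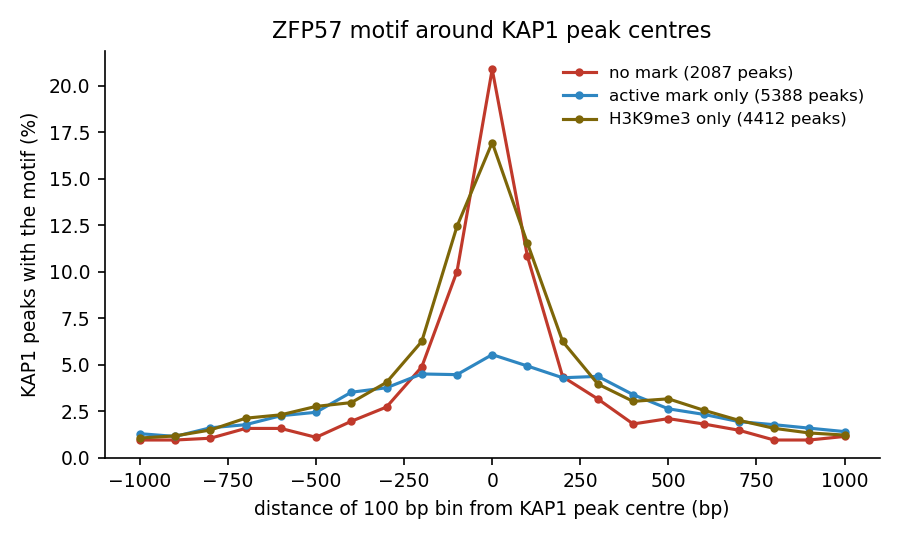
Share of KAP1 peaks (vertical axis, %) with TGCCGC on either strand in each 100 bp bin, by the bin's distance from the peak centre (horizontal axis, bp). Unmarked peaks (red) rise to 20.9% at the centre and H3K9me3 peaks (brown) to 16.95%, while active peaks (blue) reach 5.55%.

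Members with the motif were compared with the 1401 members without it, in comparisons chosen after seeing the data. They had a score above the list median more often (43.6 against 34.6%, odds ratio 1.46, 1.21 to 1.76), a CpG-rich centre more often (27.7 against 18.8%, odds ratio 1.65, 1.33 to 2.04) and a Kap1 KD PolII peak less often (4.37 against 9.28%, odds ratio 0.447, 0.297 to 0.672). A TSS lay within 1 kb of 131 of the 686 members with the motif and 235 of the 1401 without, and the interval of the odds ratio (1.17, 0.925 to 1.48) held 1. By location the motif was present at 53.5% of exonic, 37.1% of intronic, 35.8% of TSS and 28.6% of intergenic members. The motif was present at 29.7% of members that had a mark within 1 kb and 33.9% of those farther away, given as description.

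The highest-scoring member with TGCCGC lay at chr9:89773899-89775005, 30161 bp upstream of the nearest TSS of Rasgrf1. Rasgrf1 encodes a Ras exchange factor and is an imprinted gene whose imprinting control region lies upstream of it. Its score of 3100 was shared by 152 KAP1 peaks. It had no polymerase peak, and its nearest mark was an H3K27ac region 3678 bp away. Of the members whose nearest TSS belonged to a listed imprinted gene within 50 kb, a search made after its values were seen, the only other one lay at Gnas (chr2:174153715-174155388, score 193, centre 955 bp from a TSS), which encodes a stimulatory G protein subunit. The Gnas peak did not hold TGCCGC in its central 200 bp. Of the 44 listed imprinted genes 16 had a KAP1 peak over the promoter and 0 an unmarked one, beside 15.8 and 1.59% of all genes, a background at which a count of 0 is no result about the list.

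Some other motifs placed the members between the 2 classes, while others differed from a single class or from neither. Of the 21 motifs searched in the central 200 bp, 3 were more frequent in members than in active peaks (ZFP57, TATA box and heat shock element) and 7 less frequent. Against the H3K9me3 class 9 were more frequent and 4 less frequent (YY1, NF-Y, FOXA and heat shock element). The GC box GGGCGG, bound by SP and KLF factors, was present in 13.5% of members, 30.1% of active peaks (odds ratio 0.361, 0.314 to 0.415), 9.13% of H3K9me3 peaks (odds ratio 1.55, 1.32 to 1.82), 18.7% of all KAP1 peaks and 39.95% of promoters. The NRF1 motif GCGCNTGCG was found in 1.97% of members against 7.70 and 0.793%, and 6.77% of promoters. For ETS factors, CCGGAAGT was found in 1.15% against 4.03 and 0.272%, and 4.19% of promoters. The AP-1 motif TGANTCA was found in 9.10% against 16.2 and 5.30%, and 4.14% of promoters. With marks over at least 0.5 of a peak the GC box, NRF1 and ETS comparisons with the active class turned (odds ratios 1.52, 1.97 and 1.34). The calls of these motifs against the H3K9me3 class were lost when marks within 500 bp or 1 kb also counted (odds ratios 1.15, 1.38 and 1.70, then 1.04, 1.25 and 1.60) and among peaks above the median score (1.25, 1.19 and 1.91). The CTCF motif was present in 1.01% of members and 0.798% of active peaks (odds ratio 1.26, 0.748 to 2.13), and in 0.363% of H3K9me3 peaks (odds ratio 2.79, 1.45 to 5.36). Among peaks above the median score the calls of CTCF against H3K9me3 (2.58, 0.576 to 11.5), AP-1 against the active class (0.774) and the heat shock element against the active class (1.30) were lost. That of the heat shock element against H3K9me3 was lost with marks over at least 0.5 of a peak (0.909), and that of the GC box against the active class with 500 bp around each centre (0.982). The liver factor motifs of HNF4, HNF1, FOXA and C/EBP showed no called difference from active peaks. The letters of a match do not show that a factor was bound.

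CpG-rich centres (500 bp with a GC share of at least 0.5 and observed over expected CpG of at least 0.6) made up 21.8% of members, 43.4% of active peaks (odds ratio 0.363, 0.323 to 0.408) and 31.7% of all KAP1 peaks. The odds ratio turned to 1.29 within classes of TSS distance, 1.05 with 500 bp around each centre and 2.40 with marks over at least 0.5 of a peak. Against the H3K9me3 class, with 24.98%, it was 0.835 (0.737 to 0.946), and it turned to 2.22 under the last of these rules and 1.76 with 500 bp around each centre, while the call was lost within score and width quintiles (0.957 and 0.967).

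A multi-copy centre, in which at least 0.5 of the words of 32 bases occurred at more than 1 place of the assembly, was found at 317 members (15.2%, 13.7 to 16.8%). The share was 21.5% over all KAP1 peaks, 2.88% in the active class (odds ratio 6.05, 4.95 to 7.38) and 45.5% in the H3K9me3 class (odds ratio 0.214, 0.188 to 0.245). The measure was added after seeing the data, because the assembly file did not mark repeats. Reads from such sites can map to several places, and how they were handled was not given in the sources used here. Among members the share was 1.91% within 1 kb of a TSS, 13.2% in introns and 21.3% in intergenic sequence.

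PolIII marked the highest KAP1 scores among the members. A control PolIII peak lay at 50 members (2.40%, 1.82 to 3.15%) and a Kap1 KD PolIII peak at 31 (1.49%, 1.05 to 2.10%), against 2.63 and 1.51% of all KAP1 peaks, so the shares themselves were near the background. The 51 members with PolIII in either condition had scores from 61.4 to 3177 with a median of 1033, and the 2036 others had a median of 81.75. Of the 50 members with the highest scores, 27 (54.0%, 40.4 to 67.0%) had PolIII, followed by 5 of the next 50, 5 of the next 100 and 4 of the 1087 lowest. The next comparison and its cut of 1000 were not planned in advance. A score of 1000 or more was found at 27 of 51 members with PolIII and 15 of 2036 without (odds ratio 152, 71.7 to 320.4). The same order held in the active class, in which all of the 100 highest-scoring peaks had PolIII, but not in the H3K9me3 class, in which 1 of the 100 highest had it.

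**Figure D4:**
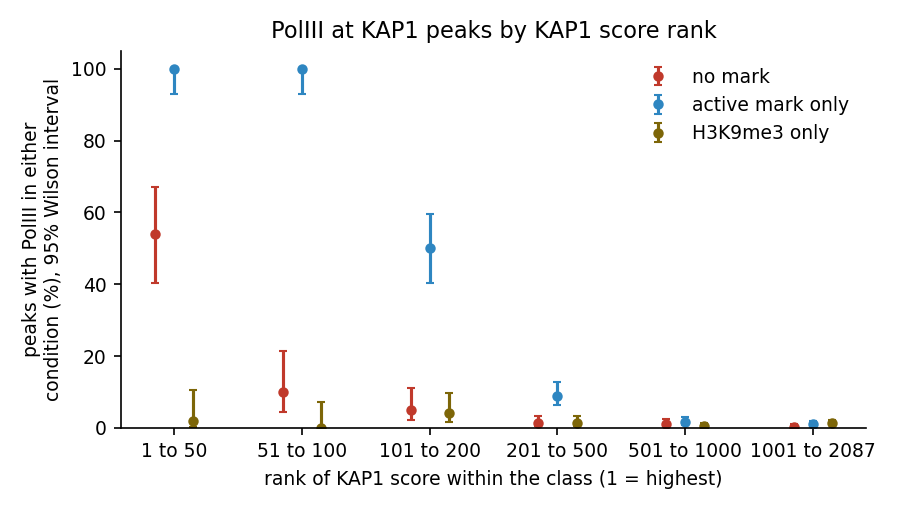
Share of KAP1 peaks (vertical axis, %, bars 95% Wilson interval) that overlap a PolIII peak in the control or under Kap1 KD, by rank of the KAP1 score within each class (horizontal axis, 1 is the highest). Among unmarked peaks (red) the share falls from 54.0% in ranks 1 to 50 to 0.368% in the 1087 lowest ranks.

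Against the active class, the odds ratio was 0.621 (0.454 to 0.849) for control PolIII and 0.534 (0.361 to 0.789) for Kap1 KD PolIII. Both turned within quintiles of peak width, to 1.53 and 1.72, and with marks over at least 0.5 of a peak, to 1.06 and 1.41. Both calls were lost with 500 bp around each centre (0.924 and 0.940). Against the H3K9me3 class they were 1.69 (1.17 to 2.47) and 11.1 (4.61 to 26.6). The control PolIII list was crowded on chromosomes 1 to 4, which held 2480 of its 2772 peaks against 89 of 431 of the Kap1 KD list. Of the KAP1 peaks with control PolIII, 61 of 63 in the H3K9me3 class lay there and 13 of 50 among the members, while 1315 of 4412 and 531 of 2087 of all peaks of these classes did. Without these chromosomes the control odds ratio against H3K9me3 was 37.7, while the call was lost with polymerase peaks within 500 bp counted (1.38, 0.964 to 1.98) and at the lowest value on leaving out 1 chromosome (1.37, 0.920 to 2.05).

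Of the 50 members with control PolIII, 30 (60%) had a Kap1 KD PolIII peak too, against 54% of all KAP1 peaks with control PolIII and 143 of 205 (69.8%) in the active class (odds ratio 0.650, 0.343 to 1.23), a comparison made after seeing the data. In the H3K9me3 class it was 2 of 63. Outside chromosomes 1 to 4 the numbers were 26 of 37 members, 114 of 141 active peaks and 2 of 2 H3K9me3 peaks, and on them 4 of 13, 29 of 64 and 0 of 61, so the low share of the H3K9me3 class lay on those chromosomes. The 30 members found in both conditions had a median score of 2627 and the 20 found in the control alone 229.9. The only member with PolIII under Kap1 KD alone had a score of 65.6. Both polymerase lists had numbers missing, so a site without a listed peak may have had a call that the deposited list leaves out.

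The comparison of the B box between members with and without PolIII was not planned in advance. The B box motif GGTTCGANT was present in 16 of the 51 members with PolIII and 17 of the 2036 without (odds ratio 54.3, 25.4 to 116). The 7-letter core GGTTCGA, tried after seeing the data, was present in 25 and 54 of them. In the active class the core was present at 47.1% of peaks with PolIII and 4.33% without, and in the H3K9me3 class at 8.96 and 4.67%. The longer motif was present in the central 200 bp of 0.719% of members, 0.798% of active peaks, 0.181% of H3K9me3 peaks (odds ratio 3.98, 1.69 to 9.42) and 0.130% of promoters. The call against H3K9me3 was lost in a 500 bp window (1.35).

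The members with PolIII were mostly intergenic (36 of 51), and 7 had a TSS within 1 kb. Of the 14 members scoring 3100 or above, 10 had PolIII in both conditions. They included sites nearest to Commd3, Agbl5, Zfp956, Wnt11, Rab11a, Ctnna3, Rps29 and Stk30. The site beyond Commd3 (chr2:18508086-18509339, score 3177) was 85298 bp from a TSS and 83559 bp from the nearest mark. The site at Agbl5, which encodes a tubulin deglutamylase, was 335 bp from the TSS (chr5:31189876-31191587). The site at Rab11a, a small GTPase of recycling endosomes, was 364 bp from the TSS (chr9:64585231-64586627). The site at Rps29, a ribosomal protein gene, lay at chr12:70259689-70261119, with its centre 122 bp from the start of the annotated misc_RNA gene AC099934.1. Of the 10, only the Ctnna3 and Rps29 sites had PolII, under Kap1 KD at Ctnna3 and in both conditions at Rps29. A run of 9 members with PolIII lay within chr13:21258944-22067483, with Trim27, Gpx5, Gpx6, Zfp184 and Pom121l2 as nearest genes.

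The other 4 of the 14 differed in kind. The highest score of all members, 3196, was at a multi-copy site 34513 bp from Vmn2r2 (chr3:63974692-63977137), in which 89.8% of the 32-base words occurred elsewhere. The sites at Gm10925 (chr1:24618253-24623129) and in Myo3a (chr2:22442711-22446011) shared 100% and 45.8% of the words of their central 500 bp with the mitochondrial genome. More than 0.5 of the words were shared at 2 members, Gm10925 and a site nearest 1700019M22Rik (score 1381, 64.4%), and at no other KAP1 peak. How reads of mitochondrial origin entered these scores was not tested. The fourth was the site upstream of Rasgrf1.

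Apart from Gm10925, the highest-scoring members without PolIII within 1 kb of a TSS lay at Gnai1 (inhibitory G protein subunit, score 1089), Paqr4 (1088), Nptx1 (a neuronal pentraxin, 1085), Nrarp (a Notch pathway feedback regulator, 972) and Ap1m2 (an epithelial clathrin adaptor subunit, 746). No polymerase peak overlapped any of them, and all but Paqr4 held TGCCGC. Their nearest marks were between 176 bp (Nptx1) and 64300 bp (Gnai1) away. The Eef2k site (score 1210, 172 bp from the TSS) had PolIII in both conditions and no PolII. The highest-scoring intronic members lay in Syt16 (score 1934), Nbea (1148), Morn1 (1132) and Stab2 (1076), again without a polymerase peak, and the first 3 held TGCCGC.

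PolII was found at few members, mostly at gene starts (63 of 86 in the control). A control PolII peak overlapped 86 members (4.12%, 3.35 to 5.06%), against 16.8% of all KAP1 peaks, 35.4% of active peaks (odds ratio 0.0784, 0.0627 to 0.0980) and 0.952% of H3K9me3 peaks (odds ratio 4.47, 3.08 to 6.49). A Kap1 KD PolII peak overlapped 160 members (7.67%, 6.60 to 8.89%), against 28.6% of all KAP1 peaks, 57.7% of active peaks (odds ratio 0.0609, 0.0514 to 0.0722) and 3.04% of H3K9me3 peaks (odds ratio 2.65, 2.09 to 3.36). When a mark within 1 kb also counted, the odds ratio against H3K9me3 fell to 1.41 (0.808 to 2.46) in the control and turned to 0.870 under Kap1 KD. Among peaks above the median score the control value was 1.63 (0.912 to 2.92).

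Of the 366 members within 1 kb of a TSS, 63 had control PolII and 117 had Kap1 KD PolII, compared with 23 and 43 of the 1721 members farther away. Against active peaks within 1 kb of a TSS the members at gene starts still had PolII less often, at 17.2 against 55.0% in the control (odds ratio 0.170, 0.128 to 0.225) and 31.97 against 78.5% under Kap1 KD (odds ratio 0.129, 0.101 to 0.163). The CpG-rich share at gene starts was 84.4% in members and 82.0% in active peaks (odds ratio 1.19, 0.882 to 1.61, an interval that held 1). Among members at gene starts, Kap1 KD PolII was found at 108 of 309 with a CpG-rich centre and 9 of 57 without (odds ratio 2.87, 1.35 to 6.06), comparisons made after seeing the data. Control PolII was found at 56 and 7 of them (odds ratio 1.58, 0.681 to 3.67, an interval that held 1).

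The shares with PolII by distance to a mark are given as description. A Kap1 KD PolII peak was found at 23.8% of members with a mark within 1 kb and 2.41% of the others, and a control peak at 13.1 and 1.21%. At gene starts the numbers were 106 of 190 and 11 of 176 for Kap1 KD PolII. Beyond 50 kb from any mark none of 138 members had control PolII, which allows a share of up to 2.71% (Wilson), while 58 of them (42.0%) held TGCCGC.

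**Figure D5:**
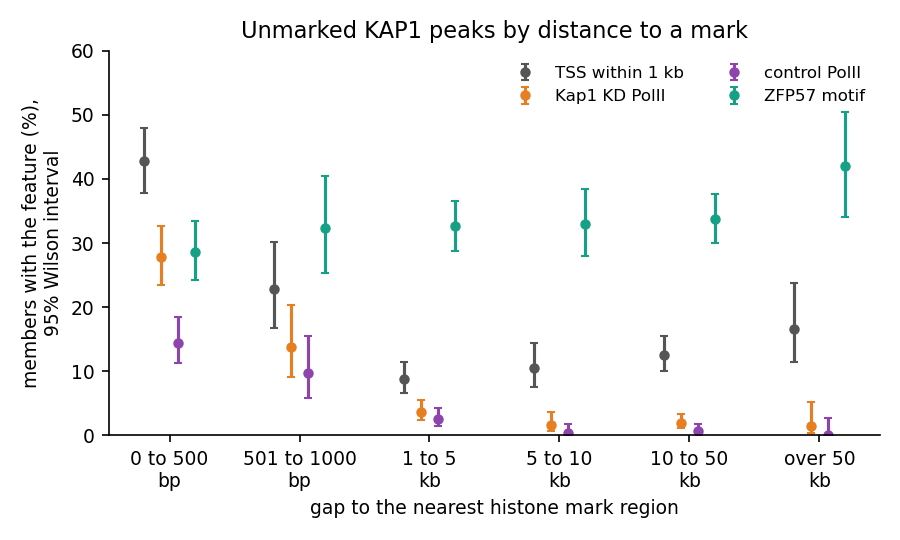
Share of unmarked KAP1 peaks (vertical axis, %, bars 95% Wilson interval) with a TSS within 1 kb, Kap1 KD PolII, control PolII or the ZFP57 motif, by the gap to the nearest mark region (horizontal axis). Kap1 KD PolII falls from 27.8% at up to 500 bp to 1.45% beyond 50 kb, while the motif lies between 28.6 and 42.0% throughout.

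The calls under Kap1 KD were compared with those of the control. Of the 86 members with control PolII, 82 (95.3%) also had Kap1 KD PolII, against 95.6% over all KAP1 peaks with control PolII and 96.3% in the active class (odds ratio 0.792, 0.283 to 2.22). That odds ratio was 0.199 (0.0567 to 0.699) when a mark within 1 kb also counted and 1.73 with 500 bp around each centre. Of the 2001 members without control PolII, 78 (3.90%) had it under Kap1 KD, against 15.1% of all such KAP1 peaks, 36.6% in the active class (odds ratio 0.0704, 0.0556 to 0.0892) and 2.31% in the H3K9me3 class (odds ratio 1.71, 1.27 to 2.32). The last comparison turned to 0.753 and 0.666 when a mark within 500 bp or 1 kb also counted. The Kap1 KD PolII list is longer than the control list as a whole, and the part of library depth in the 78 was not tested.

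The highest-scoring members with control PolII were the Rps29 site and the site at Wbp4 and Elf1 (chr14:79880915-79882092, score 2977), both with PolIII as well. Next came sites at C2 and Zbtb12 (score 683), near Mir24-2 (272), at Ankrd10 (237) and at Dyrk1b (225). C2 encodes a complement component and Dyrk1b a protein kinase. All 6 had PolII in both conditions, and an H3K27ac or H3K4me1 region lay 93 to 1311 bp from each.

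Promoters (250 bp to each side of the 5′ end) of 356 of 22367 protein-coding genes (1.59%) held an unmarked KAP1 peak, out of 3522 (15.7%) with any KAP1 peak. A control PolII peak lay over 68 of the 356 and a Kap1 KD PolII peak over 134 (37.6%), against 47.2 and 68.2% of promoters with other KAP1 peaks and 7.32 and 15.5% of those without KAP1. Counted by symbol, 353 of 22225 genes (1.59%) had such a promoter. Of the 3511 genes with any KAP1 peak over the promoter, 10.1% had an unmarked one. The lists that follow were chosen with earlier results of these data known and are described by their counts alone.

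Among developmental transcription factor genes 8 of 202 (3.96%) had an unmarked KAP1 peak over the promoter, and 45 had any KAP1 peak. The 8 included Foxd3 (score 653), Hoxd13 (476), Foxd1 (303), Neurod1 (145), Nkx6-1 (100.96), Hoxd3 (57.2) and Foxj3 (57.0). Foxd3 and Foxd1 are forkhead factors of neural crest and kidney stroma, and Hoxd13 patterns the digits. Of these genes only Foxj3 had PolII, in both conditions, and the nearest marks of the first 4 were 9917 to 34711 bp away. Among liver factors and nuclear receptors the number was 3 of 29 (Cebpb, Cebpa and Ppard, with scores of 111, 91.95 and 59.4). Any KAP1 peak lay over 10 of these 29 promoters. The C/EBP factors drive hepatocyte and acute phase genes, and both of their promoters had PolII in both conditions and a mark region 118 and 605 bp away.

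The mitochondrial ribosome and complex I list had 5 of 114 (Mrpl33, Mrps31, Mrpl47, Ndufb5 and Ndufa2, of which Mrpl47 and Ndufb5 share 1 peak). Mrpl33 had the highest score of these, 459, with TGCCGC and no polymerase. The transcription machinery list had 4 of 109. Med26, a Mediator subunit, Polr3a, the largest PolIII subunit, and Taf9, a TFIID subunit, had PolII under Kap1 KD but not in the control, and Gtf3c1, a TFIIIC subunit that binds the B box, had none. Ribosomal protein genes had 2 of 82 (Rps29 and Rps7), histone genes 3 of 67 (Hist1h2al, Hist1h4m and Hist3h2a, all with PolII in both conditions), spliceosome genes 1 of 56 (Snrpb), proteasome genes 1 of 39 (Psmd8) and heat shock protein genes 1 of 78 (Dnajc13). Histone genes resemble each other, and 77.8 and 93.2% of the words at the Hist1h2al and Hist1h4m sites occurred elsewhere. Any KAP1 peak lay over 48 of the mitochondrial, 38 of the transcription machinery, 37 of the ribosomal and 44 of the histone promoters. Of these, 10.4, 10.5, 5.41 and 6.82% had an unmarked peak, beside 10.1% over all genes. In the spliceosome, proteasome and heat shock lists the shares were 4.55, 9.09 and 5.26%, out of 22, 11 and 19 promoters.

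Among zinc finger Zfp genes, the family that includes the KZFPs, 5 of 367 (1.36%) had an unmarked peak and 66 any KAP1 peak. Zfp11, Zfp664, Zfp523 and Zfp688 had PolII in both conditions and Zfp711 in neither, and their scores ran from 62.3 to 94.75. Germline genes had 2 of 49, Tex19.1 (score 90.9) and Ybx2 (86.0), both with TGCCGC and no polymerase peak. Any KAP1 peak lay over 6 of these 49 promoters. Of the immediate early genes 1 of 25, Egr1, had an unmarked peak (score 97.3), with PolII in the control and not under Kap1 KD. Any KAP1 peak lay over 11 of these 25 promoters. The count was 0 for the KAP1 partner list (8 of 37 promoters with any KAP1 peak), and likewise for the signalling ligand (10 of 67), plasma protein (4 of 54), cytochrome P450 (3 of 96), clustered protocadherin (0 of 24) and olfactory or vomeronasal receptor (1 of 1440) lists. With so few KAP1 peaks over these promoters, the zeros say little about the lists.

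Of 10 genes looked up because the study names them, Egr3 (chr14:70477252-70479964), an immediate early transcription factor gene, was the only one with an unmarked KAP1 peak, within the gene and outside its promoter. The KAP1 peaks at Hspa1a, Hspa1b and Egr2 overlapped H3K9me3, those at Ier2, Ier5, Junb and Tbp an active mark, and that at Actg1 both kinds.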

How the data were processed

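ChIP-seq lists of 8 libraries were analysed. Per the methods of the study, the authors aligned reads to mm9 with Bowtie, used MACS with total input as the control for KAP1 and for PolII, and used ChIP-Part for the histone marks. The program for PolIII, the options and the read depths were not given in the sources used here. The deposited KAP1 and polymerase lists carry a score for each peak. The authors' score was used only to rank or stratify peaks within a list.

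Peaks overlapped when they shared at least 1 bp. A TSS was the start of any protein-coding transcript of GENCODE M1 (70064 positions), and sequence came from the NCBIM37 assembly of mm9. Shares carry 95% Wilson intervals. Classes were compared by odds ratios with 95% Woolf intervals (0.5 added where a cell was 0) or Mantel-Haenszel odds ratios (statsmodels 0.14.6, scipy 1.17.1, pysam 0.24.0), functions that were tested on simulated data. No p-value was computed, since each group holds 1 library. The assembly file marks no repeats, so the planned repeat comparison could not be computed, and copies of 32-base words were counted over the whole assembly in its place.

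The named sites were the highest-scoring members by location (12 at a TSS, 6 intergenic, 4 intronic) and with control PolII (6) or PolIII (4), up to 4 listed genes with an unmarked promoter per list, and genes named by the study, with ties in genome order. Remaining list members and the sites scoring 3100 or above were named after their values were seen. The members and lists were chosen with earlier results of these data known. Alternatives changed the rule for a mark, the KAP1 or polymerase peaks used, the chromosomes, the windows and the strata. Some items are not reported here.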

Additional observations from a re-analysis of the deposited data

How the results depend on the processing

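Of 464 alternatives to 35 odds ratios, 405 kept the direction and the call. Without chromosomes 9, 12, 14 and 16, motifs more frequent than in the active class numbered 4, and than in H3K9me3 8. The comparisons that moved were mainly those where peak length or the rule for a mark changed, and the cause was not tested. With marks over at least 0.5 of a peak (6198 members), the odds ratios against the active class were 1.064 and 1.412 for control and Kap1 KD PolIII, 1.162 for Kap1 KD PolII at sites with control PolII, 1.391 for a TSS, 0.9688 for the score, 2.395 for CpG-rich centres, 1.521 for the GC box, 1.97 for NRF1, 1.337 for ETS and 3.541 for the B box. CpG-rich centres against H3K9me3 were at 2.22. With marks within 500 bp counted, Kap1 KD PolII against H3K9me3 was 1.186 overall and 0.7531 at sites without control PolII. With marks within 1 kb these were 0.8697 and 0.6658, control PolII against H3K9me3 was 1.409, a TSS 1.091, and Kap1 KD PolII at sites with control PolII, against the active class, 0.1991. With 500 bp around each centre (3287 members), values against the active class were 0.9243 and 0.9399 for control and Kap1 KD PolIII, 1.728 for Kap1 KD PolII with control PolII, 0.9842 for the score, 1.051 for CpG-rich centres and 1.17 for the B box. Against H3K9me3 they were 1.762 for CpG-rich centres and 0.9576 for TGCCGC. Among peaks above the median score (784 members), control PolII against H3K9me3 was 1.633, Kap1 KD PolII without control PolII 1.307, and, against the active class, CTCF 0.5013 and the B box 1.3. Within width quintiles, values against the active class were 1.529 and 1.723 for control and Kap1 KD PolIII, 2.288 for the score, 0.8976 for CTCF and 1.489 for the B box, and CpG-rich centres against H3K9me3 were at 0.9665. CpG-rich centres were at 0.9572 against H3K9me3 within score quintiles and 1.285 against the active class within TSS classes. Control PolIII against H3K9me3 was 1.382 with polymerase peaks within 500 bp and 1.372 at its lowest without 1 chromosome. The highest values without 1 chromosome, against the active class, were 1.076 for Kap1 KD PolII with control PolII and 1.17 for the B box. TGCCGC against H3K9me3 in 500 bp was 0.9505. Motifs more frequent than in the active class numbered 6 in 500 bp windows and 8 with marks over at least 0.5 of a peak. Motifs more frequent than in H3K9me3 numbered 5 with marks within 500 bp and 3 among peaks above the median score, where 2 were less frequent. The repeat-masked comparison was not run. Read depth is unknown, so an absent peak cannot be told apart from a shallow library.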
